A study of Mus musculus with 12 samples.

Results

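Transcript levels of 10 circadian clock genes were followed in 12 RNA-seq libraries of mouse primary hepatocytes. The genes are *Per1*, *Per2*, *Per3*, *Cry2*, *Gm129* (an older symbol of *Ciart*), *Bhlhe40*, *Bhlhe41*, *Dbp*, *Tef* and *Hlf*, which the circadian activators switch on through E-boxes, or which carry that rhythm on to the liver as D-box binding proteins. They were chosen by name, all 10 of 10 were found as a single row each among the 37991 genes of the deposited table, and all 10 passed the filter on low values, set at 1 FPKM (a fragment count scaled to transcript length and to library size) in at least 3 libraries, which left 11213 genes to test. The cells came from male mice, 10 weeks old, whose *Nr1d1* (REV-ERBα) and *Nr1d2* (REV-ERBβ) alleles were both floxed in every group. The KO-labelled mice had received, 2 weeks before, an AAV8 vector with Cre and GFP under the TBG promoter, which is active in hepatocytes, and the control mice the same vector with GFP alone. Plated on collagen, the cells were then kept for 8 h with 10 µM SR9009, marketed as a synthetic agonist of the REV-ERBs, or with its solvent DMSO. The 4 groups were KO-labelled SR9009, KO-labelled DMSO, control SR9009 and control DMSO, with 3 libraries in each. No group had Cre without floxed alleles, and the labels do not say whether the 3 libraries of a group are separate mice, so p-values measure the spread between these samples only, which may be technical.

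In the mammalian clock, CLOCK or NPAS2 paired with BMAL1 (the product of *Arntl*) binds E-boxes and activates the *Per*, *Cry*, *Ciart*, *Bhlhe40*, *Bhlhe41* and *Dbp* genes. PER and CRY proteins return to the nucleus and inhibit that activator, CIART does so as a further repressor, and BHLHE40 and BHLHE41 (DEC1 and DEC2) compete with it for E-boxes. DBP, TEF and HLF are the PAR bZIP activators of D-boxes, which drive many liver genes of drug and amino acid metabolism, and NFIL3 represses through the same D-boxes. REV-ERBs repress through the RORE, a site used by *Arntl*, *Npas2*, *Clock*, *Cry1* and *Nfil3*, and so reach the E-box genes through the activators.

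Of the targeted genes, *Nr1d1* was not lost from the KO-labelled libraries, nor was *Nr1d2*. *Nr1d1* stood at 22.5, 21.5 and 22.2 FPKM in KO-labelled SR9009 libraries, 17.4, 17.5 and 18.3 in KO-labelled DMSO, 20.1, 19.0 and 19.4 in control SR9009 and 18.3, 18.3 and 19.0 in control DMSO. Its KO-labelled libraries were all above the control ones under SR9009 (limma adjusted p = 0.0429) and all below them in DMSO, with 18.26 FPKM in the highest KO-labelled and 18.27 FPKM in the lowest control library (adjusted p = 0.492). *Nr1d2* averaged 17.7 ± 1.58, 16.2 ± 0.0949, 15.3 ± 1.67 and 15.3 ± 1.87 FPKM in the same order (SD, n = 3 each). The labels do not give which exons the floxed alleles lose, so a gene-level sum over all exons does not check the deletion, and the groups are named as labelled. *Arntl*, a direct REV-ERB target, was at 6.49 ± 0.307 FPKM in KO-labelled DMSO against 0.214 ± 0.0796 FPKM in control DMSO. Of 9 hepatocyte markers the summed level was 29701 to 36567 FPKM per library, and that of 8 stellate markers was 1.75 to 2.86 FPKM, of which *Reln* gave 1.06 to 2.60 FPKM. Depth, read from the steps between low values, was lowest in control SR9009 library 1 (55.5% of the deepest library) and KO-labelled DMSO library 1 (63.4%) and lay between 77.0% and 92.4% in the 9 others below the deepest, control DMSO library 1. A step of a 1 kb gene was worth 0.0186 to 0.0336 FPKM, from the deepest to the shallowest library.

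The stretches before the annotated starts are shown for *Gm129*, *Per1*, *Cry2* and *Dbp*, which passed a test in at least 1 comparison, and for *Per3*, whose window alone held D-boxes; *Tef* and *Hlf*, which also passed, are described by their motifs. They come from the RefSeq promoter table on GRCm38.p6, a later build than the mm9 of the expression table; of the members, 8 of 10 were matched there, with 10 starts, while *Per2* and *Bhlhe40* were not. Each run holds the 250 bases before the start, 5′ to 3′ on the strand of the gene, and capitals mark motif matches. The windows lie at chr3:95882229-95882478 (minus strand) for *Gm129*, chr11:69098699-69098948 (plus) for the first start of *Per1*, chr2:92434070-92434319 (minus) for *Cry2*, chr4:151044666-151044915 (minus) for *Per3* and chr7:45704997-45705246 (plus) for *Dbp*.
Gm129: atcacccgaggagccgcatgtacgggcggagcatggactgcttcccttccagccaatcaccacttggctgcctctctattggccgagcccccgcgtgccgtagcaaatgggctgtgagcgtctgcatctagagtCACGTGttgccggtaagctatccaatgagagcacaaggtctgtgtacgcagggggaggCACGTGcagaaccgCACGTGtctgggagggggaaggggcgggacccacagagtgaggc
Per1: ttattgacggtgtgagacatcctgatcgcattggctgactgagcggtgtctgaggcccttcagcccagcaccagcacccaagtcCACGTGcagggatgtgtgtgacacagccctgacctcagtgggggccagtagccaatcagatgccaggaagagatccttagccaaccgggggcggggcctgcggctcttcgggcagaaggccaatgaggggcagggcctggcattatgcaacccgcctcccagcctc
Cry2: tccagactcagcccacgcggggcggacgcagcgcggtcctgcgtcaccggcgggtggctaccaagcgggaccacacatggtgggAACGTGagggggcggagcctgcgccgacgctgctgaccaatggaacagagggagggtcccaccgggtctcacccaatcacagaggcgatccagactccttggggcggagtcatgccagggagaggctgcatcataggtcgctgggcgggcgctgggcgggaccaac
Per3: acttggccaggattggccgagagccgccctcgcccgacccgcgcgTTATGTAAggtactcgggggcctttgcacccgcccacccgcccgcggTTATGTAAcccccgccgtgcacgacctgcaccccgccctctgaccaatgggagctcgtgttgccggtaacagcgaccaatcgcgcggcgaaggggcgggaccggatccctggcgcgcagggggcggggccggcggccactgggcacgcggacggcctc
Dbp: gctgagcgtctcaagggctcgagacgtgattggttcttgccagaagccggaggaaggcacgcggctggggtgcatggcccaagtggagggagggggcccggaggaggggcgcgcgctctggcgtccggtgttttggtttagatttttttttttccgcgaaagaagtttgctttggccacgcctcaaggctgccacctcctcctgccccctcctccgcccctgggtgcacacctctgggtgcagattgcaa
The search covered both strands for the E-box (CACGTG, the same on both strands), the E′-box (CACGTT), the D-box (TTATGTAA, TTACGTAA or TTATATAA), the cAMP response element CRE (TGACGTCA), the RORE and its core (TAGGTCA or TGGGTCA), which the RORE contains. *Gm129* held 3 E-boxes, starting 116, 58 and 44 bases before the start, and *Per1* 1 at 166 bases. *Tef* held 1 E-box before each of its 2 annotated starts, at 127 and 138 bases, and *Bhlhe41* 1 at 153 bases. *Cry2* held an E′-box at 166 bases, written above as its reverse complement AACGTG. *Per3* held 2 D-boxes, at 205 and 158 bases, and *Hlf* a CRE at 9 bases. None of the motifs was in the *Dbp* window or before the second *Per1* start, which says only that these letters are not in these stretches. E-boxes were in 5 of the 10 member windows, from 4 of the 8 matched members, and in 6.02% of all 32851 such windows. The members were chosen partly as E-box genes, so this describes the windows and is no test. The other shares over all windows were 3.85% for the E′-box, 1.43% for the D-box, 1.55% for the CRE, 5.38% for the RORE core and 0.332% for the RORE, and neither of the last was in a member's window.

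**Figure D1:**
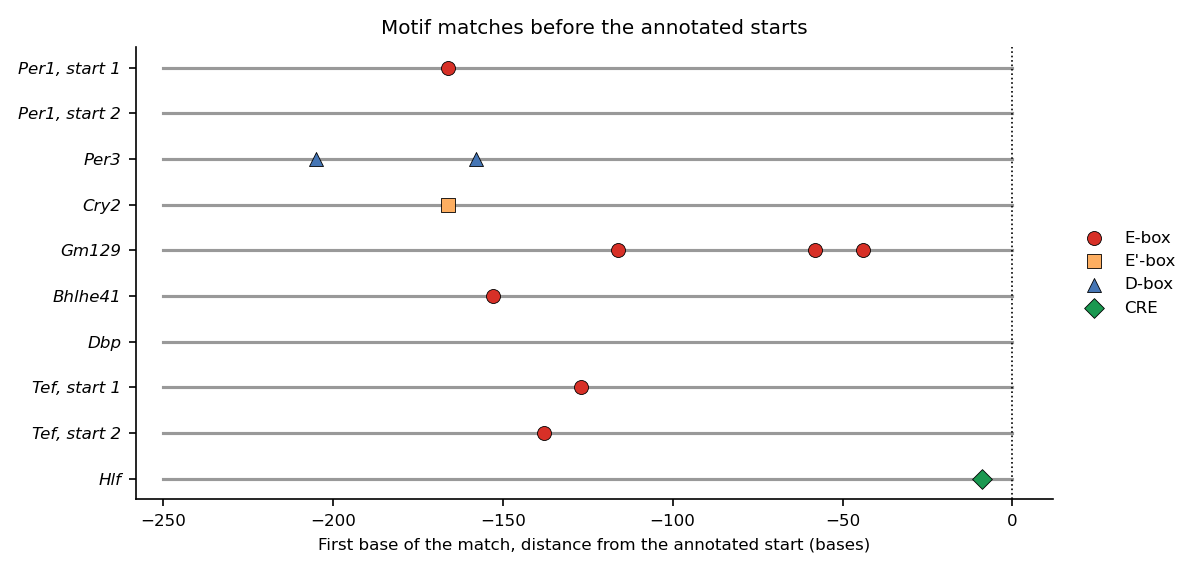
Positions of the motif matches in the 250 bases before each annotated start of the 8 matched members, with the start at 0 on the horizontal axis (bases) and 1 row per start. *Gm129* carries 3 E-boxes, *Per1* (first start), both starts of *Tef* and *Bhlhe41* 1 each, *Cry2* an E′-box, *Per3* 2 D-boxes and *Hlf* a CRE.

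*Bhlhe40* was the most abundant member in each of the 4 groups, at 91.3 to 115 FPKM on average, followed by *Tef* at 32.4 to 42.6 FPKM. *Cry2* (21.0 to 30.5 FPKM) and *Per1* (17.9 to 29.5 FPKM) came next. Their libraries did not overlap with each other or with *Tef* in 3 groups, whereas in control SR9009 *Per1* overlapped both *Tef* and *Cry2*. *Gm129* averaged 6.56 to 10.1 FPKM and *Per2* 4.09 to 8.19 FPKM, with overlapping libraries in KO-labelled DMSO and control SR9009. The lowest 4 were *Dbp*, *Bhlhe41*, *Per3* and *Hlf*. *Dbp* was above *Bhlhe41* and *Per3* on average in both KO-labelled groups and below both in the control groups, where its libraries overlapped those of *Per3* and *Hlf*. All of these are levels per length, so they can be set beside each other across genes.

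Most members passed no test in any given contrast. Between KO-labelled and control cells in DMSO, *Dbp* rose while *Per2* and *Gm129* fell, and under SR9009 *Dbp* rose while *Per1* and *Per2* fell. SR9009 lowered *Cry2* and raised *Bhlhe40* in both genotypes. It also lowered *Per1* in KO-labelled cells, and *Tef* and *Hlf* in control cells. Tests were made with limma on log2(FPKM + 1), and a gene was called at an adjusted p under 0.05 (Benjamini-Hochberg, over the 11213 genes). Each log2 change is on that scale, where the added 1 shrinks changes of low genes such as *Hlf*.

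The members called are counted beside the share of all tested genes called by the same rule. KO-labelled against control cells in DMSO called 3 of 10 members (1 higher, 2 lower), beside 20.0% of all tested genes (11.7% higher, 8.32% lower). Under SR9009 the same contrast again called 3 of 10 (1 higher, 2 lower), beside 20.4% (12.9% higher, 7.43% lower), and 5 of 10 without control SR9009 library 2. Scaling each library to its median gene turned the balance over all genes in 3 contrasts. Between genotypes under SR9009 it gave 1014 higher and 1098 lower, in place of 1450 and 833, and in DMSO 1053 and 1108, in place of 1307 and 933. With SR9009 in control cells it gave 482 and 436, in place of 414 and 510. That scaling called 4 of 10 members between genotypes under either treatment (1 higher, 3 lower), and 3 of 10 with SR9009 in either genotype. SR9009 against DMSO called 3 of 10 in KO-labelled cells (1 higher, 2 lower), beside 9.87% (5.32% higher, 4.56% lower), and 4 of 10 in control cells (1 higher, 3 lower), beside 8.24% (3.69% higher, 4.55% lower). The control count was 0 without control DMSO library 2 or 3, 1 without control SR9009 library 1, 2 without control DMSO library 1 or control SR9009 library 3, and 0 when only the 2 groups entered the fit. Groups did not overlap for 5 of 10 members between genotypes in DMSO (2 higher, 3 lower; 41.2% of all genes tested, 23.7% higher and 17.5% lower) and for 5 of 10 under SR9009 (1 higher, 4 lower; 34.9%, 22.7% and 12.3%). With SR9009 they did not overlap for 4 of 10 in KO-labelled cells (1 higher, 3 lower; 32.3%, 16.9% and 15.4%) and for 6 of 10 in control cells (2 higher, 4 lower; 25.0%, 10.8% and 14.2%). The median log2 change of the 10 members was -0.10 for genotype in DMSO and -0.07 under SR9009, against 0.04 and 0.06 over all tested genes. For SR9009 it was -0.18 in KO-labelled and -0.14 in control cells, against 0.00 and -0.02 over all tested genes. The difference between the SR9009 effects of the genotypes was called by limma for 0 of 10 members, of which 2 had an unadjusted p under 0.05, and for 0.0268% of all genes (0.0178% higher, 0.00892% lower; 3 genes, with 787 at an unadjusted p under 0.05). The 4 contrasts share groups, so their results are not independent of each other.

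**Figure D2:**
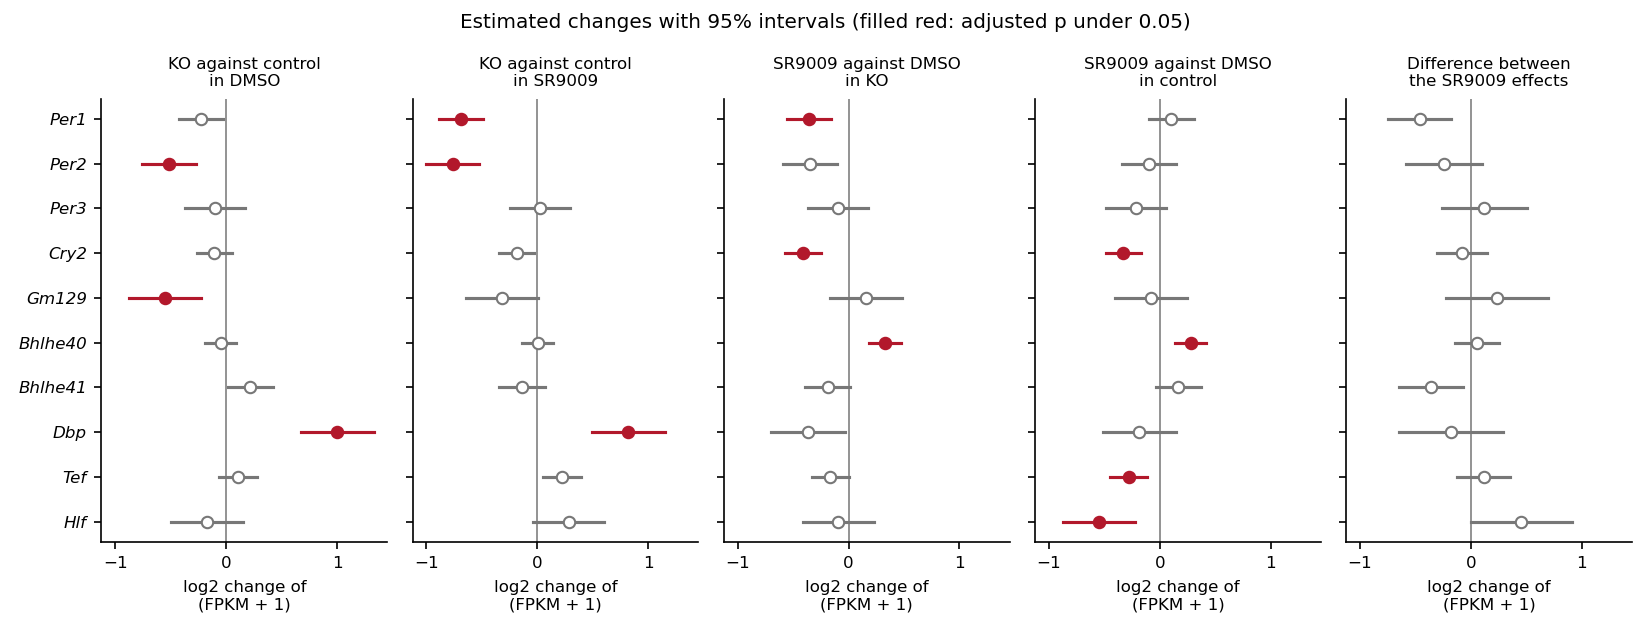
Estimated log2 change of (FPKM + 1) for each member (rows) in the 4 contrasts and in the difference between the SR9009 effects (panels), with 95% intervals from limma. Filled red points passed an adjusted p of 0.05, and *Dbp* lies far to the right in both genotype panels while no point of the last panel is filled.

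*Per1*, which encodes a core inhibitor of CLOCK and BMAL1 and is known to respond fast to hormones and cAMP, was lowest in KO-labelled cells exposed to SR9009. It stood at 17.8, 19.5 and 16.4 FPKM in KO-labelled SR9009 libraries, 22.6, 23.3 and 23.4 FPKM in KO-labelled DMSO, 33.4, 29.2 and 25.9 FPKM in control SR9009 and 25.4, 27.0 and 29.4 FPKM in control DMSO. Each KO-labelled library lay below each control library. Under SR9009 *Per1* fell by 39.4% in KO-labelled against control cells (log2 change -0.69, SE 0.09, limma adjusted p = 0.000207), with all 3 libraries below all 3. In DMSO the log2 change was -0.23 (95% interval -0.43 to -0.03, adjusted p = 0.11). *Per1* was called there after scaling to the median gene (limma adjusted p = 0.0371) and when only the groups compared entered the fit (0.0425). SR9009 lowered *Per1* in KO-labelled cells by a log2 change of -0.36 (SE 0.09, adjusted p = 0.0302), a call lost without KO-labelled SR9009 library 1 or 3 or any of the KO-labelled DMSO libraries (adjusted p up to 0.109), with no filter on low values (0.0738) and with the replicate block (0.052). In control cells the log2 change with SR9009 was 0.10 (95% interval -0.10 to 0.31). The difference between these SR9009 effects was -0.46 on the log2 scale (95% interval -0.75 to -0.18), with an unadjusted p of 0.00423 and a limma adjusted p of 0.549.

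*Per2*, the paralog that with *Per1* carries most of the repressor function, followed a like pattern at a lower level. Its values were 3.36, 4.77 and 4.13 FPKM in KO-labelled SR9009, 5.36, 5.75 and 5.13 FPKM in KO-labelled DMSO, 8.23, 8.10 and 6.53 FPKM in control SR9009 and 8.01, 8.14 and 8.42 FPKM in control DMSO. All 6 KO-labelled libraries were below all 6 control libraries. *Per2* fell by 46.4% under SR9009 (log2 change -0.77, SE 0.11, limma adjusted p = 0.000376) and by 33.9% in DMSO (log2 change -0.52, SE 0.11, adjusted p = 0.00591). SR9009 against DMSO gave a log2 change of -0.34 in KO-labelled cells (adjusted p = 0.077), with all 3 libraries below all 3, and -0.10 in control cells (adjusted p = 0.682). *Per1* and *Per2* had a Pearson r of 0.92 over the 12 libraries on the log2(FPKM + 1) scale, the highest among the 45 pairs of members, a description over libraries that share the 4 groups.

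*Per3*, a period gene whose loss leaves the clock running in mice, passed in none of the 4 contrasts. It lay between 1.12 and 2.12 FPKM in all 12 libraries, with group means of 1.53 ± 0.161 FPKM in KO-labelled SR9009, 1.70 ± 0.223 in KO-labelled DMSO, 1.51 ± 0.341 in control SR9009 and 1.90 ± 0.204 in control DMSO. The 3 control SR9009 libraries were all below the control DMSO ones (log2 change -0.21, limma adjusted p = 0.354). Summed over *Per1*, *Per2* and *Per3*, the level was 23.5 ± 2.04 FPKM in KO-labelled SR9009, 30.2 ± 0.658 in KO-labelled DMSO, 38.6 ± 4.89 in control SR9009 and 37.4 ± 2.13 in control DMSO. The sum did not overlap between the genotypes under either treatment, nor between SR9009 and DMSO in KO-labelled cells (two-sided exact permutation p = 0.1 for each, the smallest 3 against 3 libraries can give; 0.109 adjusted over the 12 tests of sums). In control cells the SR9009 and DMSO sums overlapped (exact p = 0.7). *Per1* made up 73.0% to 76.5% of the sum on average per group. *Per2* made up 17.3% in KO-labelled SR9009 and 17.9% in KO-labelled DMSO, against 19.7% in control SR9009 and 21.9% in control DMSO.

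**Figure D3:**
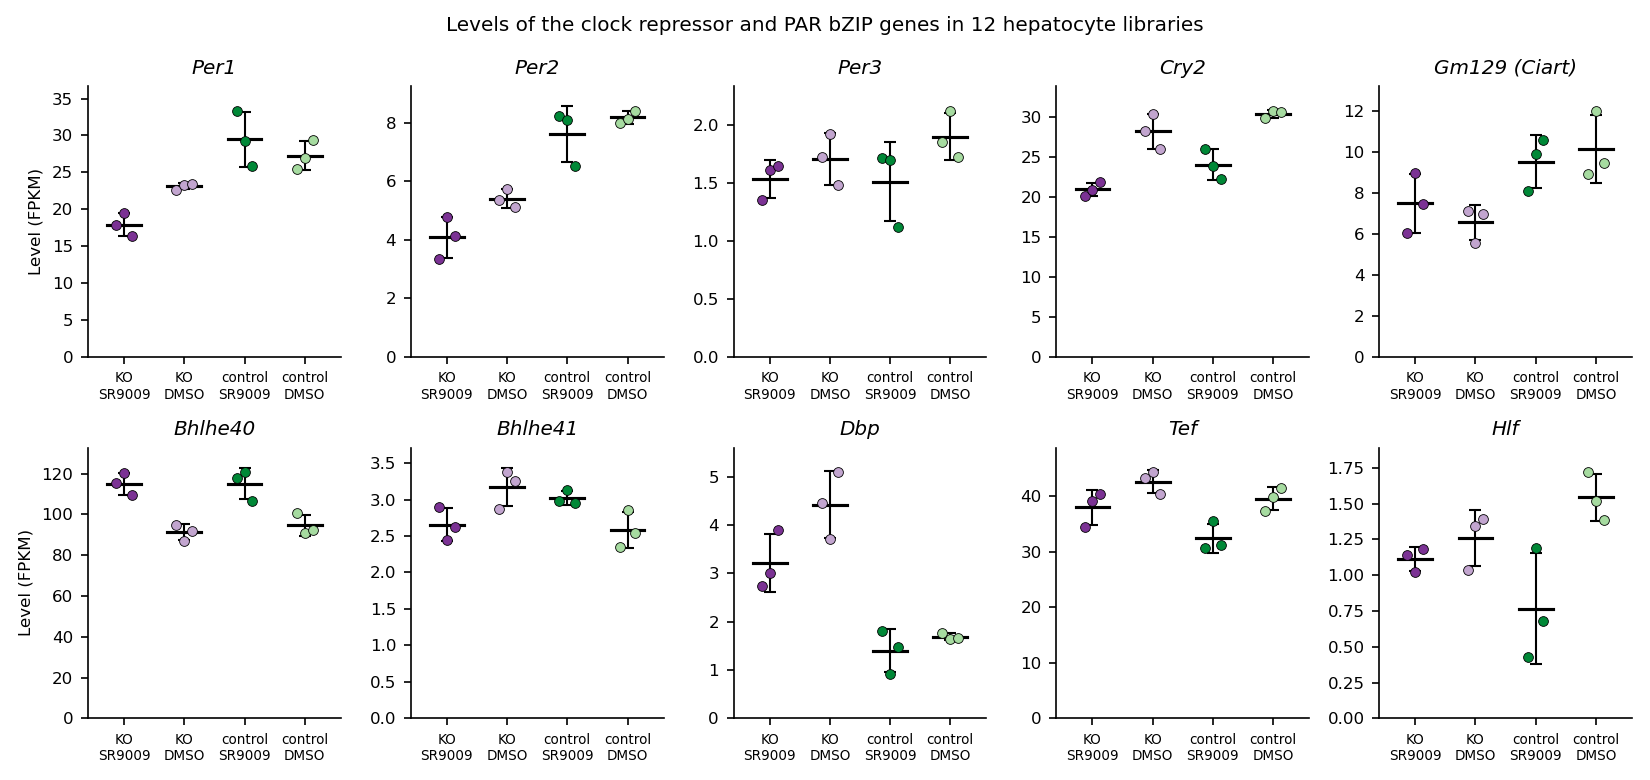
Levels of the 10 members in FPKM (vertical axes, each from 0) in the 12 libraries, with a point per library and bars for the mean ± SD of 3 libraries. *Per1* and *Per2* are lower in all KO-labelled than in all control libraries, *Dbp* is higher, *Cry2* is lower and *Bhlhe40* higher with SR9009 in both genotypes.

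*Cry2*, the cryptochrome that binds PER proteins and blocks CLOCK and BMAL1, moved with SR9009 in both genotypes. It was at 20.1, 20.9 and 21.9 FPKM in KO-labelled SR9009 against 28.3, 30.5 and 26.1 FPKM in KO-labelled DMSO, and at 26.1, 23.9 and 22.3 FPKM in control SR9009 against 29.9, 30.8 and 30.6 FPKM in control DMSO. SR9009 libraries were below the DMSO libraries of their genotype in each case. *Cry2* fell by 25.8% with SR9009 in KO-labelled cells (log2 change -0.41, SE 0.07, limma adjusted p = 0.00394) and by 21.0% in control cells (log2 change -0.33, SE 0.07, adjusted p = 0.0157). The control call was lost without control DMSO library 2 (adjusted p = 0.0592) or 3 (0.0573), and when only the 2 groups entered the fit (0.0653). The log2 difference between the genotypes was -0.11 in DMSO (95% interval -0.27 to 0.05) and -0.19 under SR9009 (95% interval -0.35 to -0.03, adjusted p = 0.0915, all 3 libraries lower). Under SR9009 *Cry2* was called after scaling to the median gene (limma adjusted p = 0.0201) and without control SR9009 library 3 (0.0408). Its paralog *Cry1*, which has a RORE and is a REV-ERB target, rose in KO-labelled cells, to 13.1 ± 0.425 FPKM against 8.995 ± 0.41 FPKM in control DMSO (adjusted p = 0.00094).

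*Gm129* (*Ciart*, also called CHRONO) encodes a repressor that binds BMAL1. It read 6.04, 8.96 and 7.46 FPKM in KO-labelled SR9009, 7.14, 5.57 and 6.97 FPKM in KO-labelled DMSO, 8.11, 9.90 and 10.6 FPKM in control SR9009 and 8.92, 12.02 and 9.45 FPKM in control DMSO. In DMSO the KO-labelled libraries were all below the control ones, while under SR9009 1 KO-labelled library reached into the control range. *Gm129* fell by 35.3% in KO-labelled against control cells in DMSO (log2 change -0.55, SE 0.15, limma adjusted p = 0.0209). The adjusted p was 0.0915 without control DMSO library 2 and 0.0828 without KO-labelled DMSO library 2, and with no filter on low values it was 0.0546. Under SR9009 the log2 change was -0.32 (adjusted p = 0.159), and SR9009 itself gave 0.16 in KO-labelled and -0.08 in control cells, neither called. On the mm9 map the whole gene (3749 bp) lies within *C920021L13Rik* on the opposite strand, which averaged 0.753 FPKM; no strand setting of the counting is known here, so reads of the pair cannot be told apart.

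*Bhlhe40* encodes DEC1, a repressor at E-boxes that is known to respond to many acute signals. It was at 115, 120.4 and 109.5 FPKM in KO-labelled SR9009 against 94.9, 87.2 and 91.9 FPKM in KO-labelled DMSO, and at 118, 121 and 106 FPKM in control SR9009 against 101, 91.0 and 92.4 FPKM in control DMSO. All 6 SR9009 libraries were above all 6 DMSO libraries, whatever the genotype. *Bhlhe40* rose 1.26-fold with SR9009 in KO-labelled cells (log2 change 0.33, SE 0.06, limma adjusted p = 0.00703) and 1.22-fold in control cells (log2 change 0.28, SE 0.06, adjusted p = 0.0216). The control call was lost in 6 alternative settings, with adjusted p up to 0.0993; among these were leaving out control SR9009 library 1 or 2 or control DMSO library 2 or 3. The log2 difference between genotypes was -0.05 in DMSO (95% interval -0.19 to 0.09) and 0.00 under SR9009 (95% interval -0.14 to 0.14). *Bhlhe41* (DEC2) was far lower, 2.35 to 3.38 FPKM over the 12 libraries, and *Bhlhe40* made up 96.6% to 97.7% of the pair's sum on average per group. *Bhlhe41* was not called in any contrast. Its libraries stood higher in KO-labelled than in control DMSO (log2 change 0.22, adjusted p = 0.129), lower in KO-labelled than in control SR9009 (-0.14, adjusted p = 0.338), and higher in control SR9009 than in control DMSO (0.17, adjusted p = 0.337), without overlap in each case.

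*Dbp*, the PAR bZIP gene with the widest daily swing in liver, was the member with the largest genotype difference. It stood at 2.74, 2.999 and 3.90 FPKM in KO-labelled SR9009, 4.46, 3.71 and 5.09 FPKM in KO-labelled DMSO, 1.80, 0.915 and 1.48 FPKM in control SR9009 and 1.77, 1.64 and 1.66 FPKM in control DMSO. The lowest KO-labelled library was above the highest control library. *Dbp* rose 2.62-fold in DMSO (log2 change 1.00, SE 0.15, limma adjusted p = 0.000558) and 2.30-fold under SR9009 (log2 change 0.82, SE 0.15, adjusted p = 0.00212), the opposite direction to *Per2* in both. SR9009 against DMSO gave a log2 change of -0.37 in KO-labelled cells (95% interval -0.70 to -0.03, adjusted p = 0.172) and -0.18 in control cells (adjusted p = 0.544). The model of *Dbp* shares 689 bp with *Sphk2* on the opposite strand, which averaged 8.60 FPKM against 2.68 FPKM for *Dbp*, and how far reads of *Sphk2* enter the *Dbp* value was not tested.

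*Tef* was the main PAR bZIP transcript of these cells, with 86.1% to 94.4% of the summed *Dbp*, *Tef* and *Hlf* level in any library. It was at 34.4, 39.2 and 40.3 FPKM in KO-labelled SR9009, 43.2, 44.3 and 40.3 FPKM in KO-labelled DMSO, 30.7, 35.4 and 31.1 FPKM in control SR9009 and 37.3, 39.7 and 41.5 FPKM in control DMSO. The control SR9009 libraries were all below the control DMSO ones, and the other contrasts overlapped. *Tef* fell by 18.0% with SR9009 in control cells (log2 change -0.28, SE 0.08, limma adjusted p = 0.0454), a call lost in 11 of 16 alternative settings with adjusted p up to 0.158, among them the loss of control SR9009 library 1 or 3 or of any control DMSO library. In KO-labelled cells the log2 change was -0.16 (adjusted p = 0.234). *Hlf*, the third PAR bZIP gene, was near the filter at 1.14, 1.02 and 1.18 FPKM in KO-labelled SR9009, 1.03, 1.34 and 1.40 FPKM in KO-labelled DMSO, 0.429, 1.19 and 0.677 FPKM in control SR9009 and 1.72, 1.52 and 1.39 FPKM in control DMSO. *Hlf* fell by 50.4% with SR9009 in control cells (log2 change -0.55, SE 0.15, adjusted p = 0.0412). That call was lost in 9 of 15 settings, among them the loss of control SR9009 library 1 or 3 or of any control DMSO library (adjusted p up to 0.142), and the lowest value belongs to the shallowest library, where *Hlf* rests on 12.8 steps per kb.

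Summed over the PAR bZIP genes, the level was 42.3 ± 3.63 FPKM in KO-labelled SR9009, 48.3 ± 1.33 in KO-labelled DMSO, 34.6 ± 2.56 in control SR9009 and 42.7 ± 1.85 in control DMSO. *Nfil3*, the repressor at the same D-boxes, read 55.9, 54.5 and 58.6 FPKM in KO-labelled SR9009, 48.7, 47.4 and 45.8 FPKM in KO-labelled DMSO, 27.4, 29.5 and 27.0 FPKM in control SR9009 and 26.3, 23.2 and 24.7 FPKM in control DMSO. The activator sum over *Nfil3* was therefore a ratio of 0.685 to 0.793 in KO-labelled SR9009, 1.00 to 1.04 in KO-labelled DMSO, 1.20 to 1.27 in control SR9009 and 1.55 to 1.85 in control DMSO, and no 2 of the 4 groups overlapped. From group means of the log2 ratio, the ratio in KO-labelled cells was 0.591 times that of control cells in DMSO and 0.607 times under SR9009. The PAR bZIP sum itself was higher in KO-labelled cells, 1.13 times in DMSO and 1.22 times under SR9009. The lower ratio between genotypes thus reflects the higher *Nfil3*. With SR9009 the ratio was 0.734 times that of DMSO in KO-labelled and 0.715 times in control cells. Each difference in the log2 ratio, and each of the 4 for the PAR bZIP sum, had a two-sided exact permutation p of 0.1, the smallest possible. Adjusted over the 12 tests it was 0.109. *Dbp* made up 7.57% of the PAR bZIP sum in KO-labelled SR9009 and 9.19% in KO-labelled DMSO, against 4.12% in control SR9009 and 3.96% in control DMSO.

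**Figure D4:**
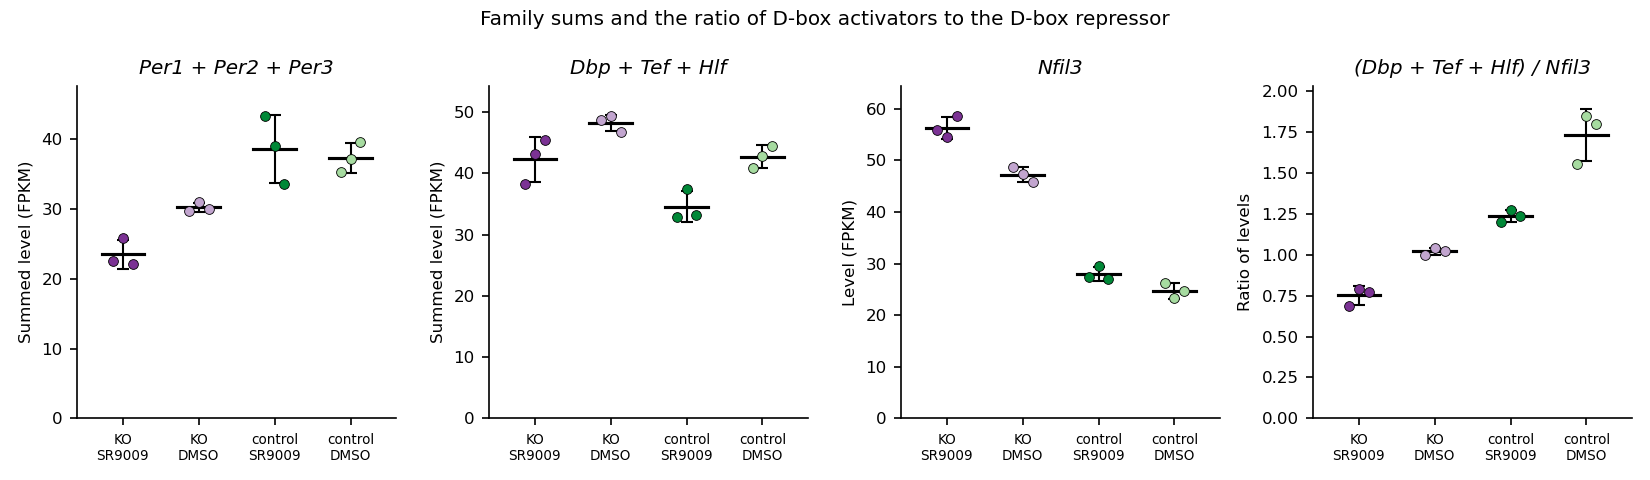
Summed FPKM of *Per1*, *Per2* and *Per3*, summed FPKM of *Dbp*, *Tef* and *Hlf*, the level of *Nfil3* in FPKM and the ratio of the second to the third (vertical axes from 0), with a point per library and bars for the mean ± SD of 3 libraries. The ratio steps through the 4 groups without overlap, with 0.685 to 0.793 in KO-labelled SR9009 and 1.55 to 1.85 in control DMSO at the ends.

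Other clock genes also differed between the genotypes. Of the 8 clock activators and RORE-driven genes reported here, 6 rose in KO-labelled against control DMSO (median log2 change 0.58, against 0.04 over all tested genes), and 7 rose under SR9009. The targeted *Nr1d1* and *Nr1d2* are among the 8. Neither was called in DMSO, and *Nr1d1* is among the 7 under SR9009 (limma adjusted p = 0.0429). By the same rule 11.7% of all tested genes rose in DMSO and 12.9% under SR9009. *Npas2*, a partner of BMAL1, was at 6.68 ± 0.86 FPKM in KO-labelled against 0.0867 ± 0.048 FPKM in control DMSO (limma adjusted p = 1.04e-08), and *Nfil3* at 47.3 ± 1.45 against 24.8 ± 1.54 FPKM (adjusted p = 5.9e-07). With SR9009, 2 of the 8 rose in KO-labelled cells, *Nfil3* (limma adjusted p = 0.0248) and the targeted *Nr1d1* (0.00472). In control cells limma called 0 of the 8, and 1 had an unadjusted p under 0.05. Over all tested genes SR9009 raised 5.32% in KO-labelled and 3.69% in control cells. In DMSO, *Arntl*, *Npas2* and *Clock*, which encode the E-box activators, thus rose in KO-labelled cells together with *Dbp*, while *Per2* and *Gm129* fell.

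Genes that act on PER and CRY proteins include the casein kinases that mark PER proteins for decay. Of 13 such genes reported here, 11 were tested, and 1 rose in DMSO between genotypes (20.0% of all tested genes were called there), *Usp7*, a deubiquitinase that stabilises cryptochromes (24.1 against 18.8 FPKM, limma adjusted p = 0.00502). In limma 0 passed in the other 3 contrasts, beside 20.4%, 9.87% and 8.24% of all genes, where 3 (KO-labelled against control under SR9009), 1 (SR9009 in KO-labelled cells) and 3 (SR9009 in control cells) had an unadjusted p under 0.05. Of 12 other genes listed by name as E-box clock outputs, 10 were tested. Motif matches are given above for the members only, not for these genes. In KO-labelled against control cells 2 rose and 2 fell in DMSO (median log2 change -0.02), and 3 rose and 3 fell under SR9009 (median 0.03). Of all tested genes 20.0% and 20.4% were called in these contrasts. *Ccrn4l* (nocturnin, a rhythmic phosphatase) fell to 3.05 against 7.12 FPKM in DMSO, and *Avpr1a*, a vasopressin receptor, to 24.3 against 37.0 FPKM under SR9009. In DMSO *Avpr1a* was at 51.2 against 49.1 FPKM and was not called (limma adjusted p = 0.641). Among the genes that rose was *Tspan4*, to 60.2 against 47.9 FPKM in DMSO and 60.3 against 47.0 FPKM under SR9009. Over all tested genes SR9009 lowered 4.56% in KO-labelled and 4.55% in control cells. Of the 10 outputs it lowered 3 and raised 0 in each genotype, with a median log2 change of -0.28 (KO-labelled) and -0.22 (control). In both these were *Ppp1r3c* (2.54 against 6.37 FPKM in KO-labelled, 1.75 against 6.48 FPKM in control cells), *Avpr1a* (24.3 against 51.2 and 37.0 against 49.1 FPKM) and *Nampt*, the enzyme of NAD salvage (17.7 against 23.6 and 18.1 against 27.2 FPKM).

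Known liver targets of DBP, TEF and HLF went both ways. Of 16 listed, 14 were tested. Between KO-labelled and control cells 4 rose and 6 fell in DMSO (median log2 change -0.20), and 4 rose and 5 fell under SR9009 (median -0.24). Of all tested genes 20.0% and 20.4% were called in these contrasts. *Cyp2a5*, a coumarin hydroxylase, was at 2272 FPKM in KO-labelled against 341 FPKM in control DMSO, and *Cyp2b10*, a phenobarbital-induced cytochrome, at 98.4 against 317 FPKM; reads of such cytochromes can be split between near-identical copies. *Aldh1a1* fell to 189 against 323 FPKM. With SR9009, 4 rose and 2 fell in KO-labelled cells, and 5 rose and 4 fell in control cells, beside 9.87% and 8.24% of all tested genes called. *Cyp2b10* rose in both genotypes, to 531 against 98.4 FPKM in KO-labelled and 1084 against 317 FPKM in control cells. *Por*, the electron donor of the cytochromes, also rose in both (415 against 285 and 649 against 435 FPKM).

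Lists of genes driven by other signals that are known to act on some of the members also moved. Beside the counts below, 20.0% of all tested genes were called between genotypes in DMSO and 20.4% under SR9009. SR9009 against DMSO called 9.87% in KO-labelled and 8.24% in control cells. Of 8 tested CREB and immediate early genes 0 rose and 5 fell between KO-labelled and control DMSO (median log2 change -0.67), with *Egr1* at 11.6 against 28.5 FPKM and *Fos* at 1.27 against 3.39 FPKM, and 2 rose and 4 fell under SR9009. With SR9009 2 of the 8 rose in KO-labelled cells and 0 fell, and 1 rose and 1 fell in control cells. Of 10 glucocorticoid receptor targets 1 rose and 6 fell with SR9009 in KO-labelled cells (median log2 change -0.70) and 1 rose and 4 fell in control cells (median -0.35), with *Fkbp5* at 34.1 against 70.9 and 41.9 against 75.2 FPKM. Between genotypes 2 rose and 2 fell in DMSO, and 2 rose and 5 fell under SR9009. Of 9 tested hypoxia targets 1 rose and 6 fell between KO-labelled and control DMSO (median log2 change -0.51), among them *Adm* (10.6 against 31.5 FPKM), and 1 rose and 5 fell under SR9009. With SR9009 3 rose and 2 fell in KO-labelled cells, and 3 rose and 3 fell in control cells. Some genes are counted in more than 1 list. *Vegfa* is among the E-box outputs and the hypoxia targets, and *Tat* among the glucocorticoid targets and the hepatocyte markers. *Alb* is among the PAR bZIP targets and the hepatocyte markers. The part of these signals in the levels of the members was not tested.

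Markers of other liver cells differed between the genotypes as well. Their counts stand beside 20.0% of all tested genes called between genotypes in DMSO and 20.4% under SR9009. For SR9009 against DMSO the shares were 9.87% in KO-labelled and 8.24% in control cells. The summed level of 10 Kupffer cell (liver macrophage) markers was 46.5 to 48.9 FPKM in KO-labelled SR9009, 36.7 to 48.4 FPKM in KO-labelled DMSO, 50.3 to 55.3 FPKM in control SR9009 and 50.2 to 63.0 FPKM in control DMSO. Of the 9 tested, 1 rose and 4 fell in KO-labelled against control DMSO, with *Marco* at 1.66 against 9.52 FPKM, and 1 rose and 1 fell under SR9009. Other markers differed less than *Marco* in DMSO. *Cd5l* was at 2.24 against 4.10 FPKM, *Clec4f* at 2.30 against 3.11 FPKM and *Emr1* at 1.09 against 1.08 FPKM. The marker that rose was *Cd68*, at 23.7 against 18.3 FPKM in DMSO, and it was also higher under SR9009. *Cd68* had the highest mean of the 10 markers in each group, so the sums mix its rise with falls of lower markers. Of 6 endothelial markers, summed to 9.16 to 10.3, 10.2 to 15.0, 6.25 to 8.44 and 6.48 to 7.16 FPKM in the same order of groups, 3 of the 4 tested rose in DMSO and 0 under SR9009, where 2 had an unadjusted p under 0.05 in limma. Of 5 cholangiocyte markers 2 were tested; *Sox9* rose and *Spp1* fell between genotypes under both treatments, and the defining *Krt7* and *Krt19* were at 0 in some libraries and reached 0.0192 and 1.02 FPKM. Of 8 stellate markers 1 was tested, and limma called it in 0 of the 4 contrasts (1 at an unadjusted p under 0.05). Of the 9 hepatocyte markers 4 rose and 1 fell between genotypes in DMSO, 4 rose and 2 fell under SR9009, and 0 rose and 5 fell with SR9009 in each genotype. With SR9009 limma called 0 genes of the Kupffer, endothelial and cholangiocyte lists in either genotype; at an unadjusted p under 0.05 there were 2 Kupffer markers in KO-labelled cells and 1 cholangiocyte marker in control cells. Fewer cells of a type and less RNA per cell cannot be told apart in such bulk samples, and the part of these cells in the levels of the members was not tested.

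The genes whose log2(FPKM + 1) over the 12 libraries was most like each member were searched among 9656 other tested genes. *Per1* was closest to *Bag3* (Pearson r = 0.93), *Slc16a11* and *Arid5b*, and *Per2* to *Tmc7* (0.98), *Trib1* and, again, *Arid5b*. *Cry2* was closest to *Clmn* (0.96), *D4Bwg0951e* and *Mtss1*, and *Bhlhe40* to *Ttc39c* (0.97), *Slc29a2* and *D10Wsu102e*. *Dbp* was closest to *Tmem176a* (0.96), *B3gat3* and *Repin1*. *Tef* was closest to *Mau2* (0.94), *Snhg11* and *Dcaf6*, *Hlf* to *Gfm2* (0.94), *Smpd1* and *Skap2*, and *Per3* to *Dcaf12* (0.92), *Bcl2l13* and *Pou6f1*. For *Gm129* the closest were *Cmbl* (0.90), *Adssl1* and the Kupffer marker *Cd5l* (0.88), and for *Bhlhe41* *Rnaseh2c* (0.87), *Nufip1* and *Fam98c* (0.77). With 4 groups in 12 libraries, such values describe a shared order of the groups and carry no test.

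The members lie on 8 chromosomes of mm9, as the deposited table places them. *Per1* (chr11:68908719-68923462, plus strand) and *Hlf* (chr11:90197849-90252231, minus) share chromosome 11, and *Bhlhe40* (chr6:108610623-108616919, plus) and *Bhlhe41* (chr6:145806763-145814078, minus) share chromosome 6. *Per2* is at chr1:93312561-93355907 (minus), *Per3* at chr4:150377761-150418774 (minus), *Cry2* at chr2:92243803-92274200 (minus), *Dbp* at chr7:52960458-52965525 (plus), *Tef* at chr15:81632851-81657291 (plus) and *Gm129* at chr3:95682426-95686174 (minus). The model of *Cry2* shares 23417 bp with *D930015M05Rik* on the opposite strand, which averaged 0.472 FPKM.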

How the data were processed

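HISAT2 and StringTie with mm9 made the values, per the submitters' processing notes; their versions and the strand setting are not given in these sources. The authors deposited 1 table with a value per gene and library, taken as FPKM because totals differ between libraries (538521 to 604449) and low values fall on steps that scale with gene length. Read totals are unknown. Values were transformed as log2(FPKM + 1), and genes that reached 1 FPKM in 3 or more libraries were fitted with limma 3.58.1 in R 4.3.3 (a mean per group, trend and robust variance, all 12 libraries). P-values were adjusted over the 11213 genes tested. The fit was also run on simulated data with independent noise for each gene, which cannot check effects shared by the genes of a library. Sums over genes, and the log2 of the ratio to *Nfil3*, were compared by two-sided exact permutation tests. Errors after ± are SDs of n = 3. In no pair of libraries were over 0.0535% of values equal. The members, lists, tests and alternatives (pseudocount, filter, scaling, variance model, replicate block, libraries left out) were chosen with earlier results of these data known. Named are all members, their 3 most alike genes and, from each list, a few genes, which are not always the called ones with the smallest p. *Cyp2a4*, for example, ranked before *Aldh1a1* by p between genotypes in DMSO and was left out of its paragraph. Same-numbered libraries of different groups had correlated deviations (r over 0.1) in 1 of 18 pairs, and differently numbered ones in 3 of 36. The numbers were therefore not taken to pair samples. A few listed genes are not reported here and enter no count of their list.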

Additional observations from a re-analysis of the deposited data

Results flagged for a closer look

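The level of *Hlf* in all 3 KO-labelled libraries lay above the control mean under SR9009 and below it in DMSO. Its libraries overlapped between genotypes under both treatments. Control SR9009 library 2 (1.19 FPKM) was above every KO-labelled SR9009 library, and KO-labelled DMSO library 3 (1.395 FPKM) above control DMSO library 3 (1.388 FPKM). The SR9009 effect in KO-labelled cells minus that in control cells was 0.454 on the log2(FPKM + 1) scale (limma adjusted p = 0.711). The level of *Bhlhe41* in all 3 KO-labelled libraries lay below the control mean under SR9009 and above it in DMSO, with a difference of -0.357 between the SR9009 effects (limma adjusted p = 0.63). Neither difference was called.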

How the results depend on the processing

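Of 830 recomputed values of single members, 768 kept their direction and side of the threshold, 39 lost a call, 8 gained one and 15 changed sign, all of the last without a call. The gains were for *Per1* between genotypes in DMSO, for *Cry2*, *Tef* and *Hlf* between genotypes under SR9009, and for *Per2* with SR9009 in KO-labelled cells. *Dbp* and *Per2* in both genotype contrasts, *Per1* between genotypes under SR9009, and *Cry2* and *Bhlhe40* with SR9009 in KO-labelled cells kept their calls in every alternative that gave a value; a filter at 5 FPKM gave none for *Per3*, *Dbp*, *Hlf* and *Bhlhe41*. Sign changes under SR9009 between genotypes were -0.0537 (quantile) and -0.0209 (median scaling) for *Per3*, with -0.0979 to 0.0822 over libraries left out, and -0.00668 and -0.0708 for *Bhlhe40*, with -0.0532 to 0.0374. For *Gm129* with SR9009 in control cells the value was 0.0239 without the 2 shallowest libraries, and -0.155 to 0.0411 over libraries left out. For the difference between SR9009 effects of *Bhlhe40* it was -0.000401 after quantile normalization and -0.00227 to 0.0883 over libraries left out. The *Per* sum with SR9009 in control cells ranged from -1.06 to 3.82 FPKM over libraries left out. The cause of these changes was not tested.

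Genes called between genotypes under SR9009 numbered 1518 when only the groups compared entered the fit, which has fewer samples, and members 3 to 5 over libraries left out. With SR9009 in KO-labelled cells, 603 to 859 genes were called over libraries left out. With SR9009 in control cells, members called numbered 2 with no filter, 0 with only the groups compared, 1 without the shallowest libraries and 0 to 3 over libraries left out. The genes called there numbered 376 with only those groups, 609 without the shallowest libraries and 530 to 919 over libraries left out. The difference between SR9009 effects was called for 1 gene each with no filter, quantile normalization, median scaling, the plain variance model and without the shallowest libraries, for 0 with the replicate block, and for 0 to 5 over libraries left out. With the replicate number as a block, 3, 3, 2 and 3 members and 2084, 2131, 958 and 793 genes were called in the 4 contrasts; the numbers do not show that libraries belong together, since 5 of 12 libraries correlated best with their own number. In the library where each had the fewest, *Hlf* rested on 12.8, *Dbp* on 43.0, *Per3* on 51.1 and *Bhlhe41* on 88.7 steps per kb. Alternatives were run for the members and the sums, not for the other lists.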
